A study of Mus musculus with 12 samples.

Results

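Transcript levels of 10 genes of the transforming growth factor-beta (TGFβ) and bone morphogenetic protein (BMP) pathways were examined in kidney cortex after ureteral obstruction. The genes were taken from a list of symbols: the ligands Tgfb1, Tgfb2, Tgfb3, Inhba, Bmp6 and Bmp7, the receptors Tgfbr1 and Tgfbr2, the intracellular inhibitor Smad7, and the latency protein Ltbp1. All 10 were found among the 23183 gene symbols measured in every library. Male C57BL/6N mice aged 6 to 7 weeks underwent unilateral ureteral obstruction (UUO), in which the ureter of 1 kidney is tied, and the kidneys were collected on day 7. The untied contralateral kidney (CL) served as the control. The mice were either wild type (Acot12+/+) or homozygous for a mutation of Acot12 induced with an RNA-guided endonuclease (Acot12-/-), a constitutive mutation that is not restricted to a cell type. RNA sequencing gave 4 groups of 3 libraries, namely Acot12+/+ CL, Acot12+/+ UUO, Acot12-/- CL and Acot12-/- UUO, 12 libraries in all. CL kidneys came from operated mice, so every comparison with them is a comparison with the opposite kidney of an obstructed animal and not with an unoperated one.

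TGFβ ligands are secreted in a latent form, held by proteins such as LTBP1, and after activation bind a type II receptor (TGFBR2) that recruits and activates a type I receptor (TGFBR1). The receptors phosphorylate SMAD2 and SMAD3, which enter the nucleus with SMAD4 and raise the transcription of matrix and cytoskeletal genes, whereas BMPs act through their own receptors on SMAD1 and SMAD5. In the kidney TGFβ1 is known as a driver of fibrosis, BMP7 is made by tubular epithelium and is known to oppose it, and SMAD7 is induced by the pathway and blocks its receptors.

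Levels were given as fragments per kilobase of transcript and library size (FPKM), a scale per transcript length on which genes can be compared. By the steps between low values the 6 CL libraries held 12280000 to 16260000 fragments and the 6 UUO libraries 18500000 to 23000000. The leading principal component, with 74.2% of the variance, separated UUO from CL. The next, with 9.46%, set Acot12-/- CL replicate 2 (score -52.3) apart from the other 2 libraries of its group (22.2 and 33.0), so member results that turn on that library are also given without it. Of the pathway genes whose calls turn on it, some are also given without it for UUO against CL. Between genotypes and in the interaction such genes are given as counts. Acot12 averaged 68.2 ± 13.6 FPKM (SD, n = 3, as for every group below) in Acot12+/+ CL and 8.32 ± 1.32 FPKM in Acot12-/- CL, and 16.0 ± 5.67 against 2.98 ± 1.06 FPKM after UUO. Each marker gene listed for proximal tubule, distal nephron, collecting duct and podocytes reached 1 FPKM in at least 1 library of each CL group.

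Promoter sequences are shown for 5 members, namely Tgfb1, Tgfb2 and Inhba, whose transcripts were higher in UUO, and the receptor pair Tgfbr1 and Tgfbr2, of which Tgfbr2 passed the test and Tgfbr1 did not. Each is the 250 bases upstream of the RefSeq start site (GRCm38.p6), 5′ to 3′ on the strand of the gene. Capitals mark the letters CAGACA (as in a Smad-binding element) and TATAAA (as in a TATA box) and, in Tgfbr1, GGCGCC (as in a GC-rich Smad element), at any position in the window.
Tgfb1 promoter, chr7:25686752-25687001, plus strand: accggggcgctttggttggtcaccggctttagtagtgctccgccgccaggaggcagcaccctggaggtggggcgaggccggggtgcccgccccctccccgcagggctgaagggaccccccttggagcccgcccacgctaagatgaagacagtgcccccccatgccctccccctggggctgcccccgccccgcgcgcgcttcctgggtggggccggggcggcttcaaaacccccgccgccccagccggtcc
Tgfb2 promoter, chr1:186705990-186706239, minus strand: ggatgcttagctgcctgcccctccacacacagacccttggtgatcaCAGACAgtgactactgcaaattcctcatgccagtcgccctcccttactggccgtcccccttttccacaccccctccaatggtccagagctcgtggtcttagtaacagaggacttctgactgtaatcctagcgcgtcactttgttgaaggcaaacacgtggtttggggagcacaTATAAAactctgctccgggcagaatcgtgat
Inhba promoter, chr13:16011601-16011850, plus strand: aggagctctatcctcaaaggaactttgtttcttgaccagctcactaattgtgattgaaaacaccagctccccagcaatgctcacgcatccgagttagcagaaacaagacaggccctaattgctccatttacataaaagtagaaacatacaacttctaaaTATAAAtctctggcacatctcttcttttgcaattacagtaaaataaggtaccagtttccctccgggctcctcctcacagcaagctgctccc
Tgfbr1 promoter, chr4:47352972-47353221, plus strand: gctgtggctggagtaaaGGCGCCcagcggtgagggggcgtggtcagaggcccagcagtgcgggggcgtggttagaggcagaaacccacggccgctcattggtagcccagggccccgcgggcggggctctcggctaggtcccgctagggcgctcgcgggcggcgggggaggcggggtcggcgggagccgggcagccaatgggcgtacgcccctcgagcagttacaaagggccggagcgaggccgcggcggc
Tgfbr2 promoter, chr9:116175364-116175613, minus strand: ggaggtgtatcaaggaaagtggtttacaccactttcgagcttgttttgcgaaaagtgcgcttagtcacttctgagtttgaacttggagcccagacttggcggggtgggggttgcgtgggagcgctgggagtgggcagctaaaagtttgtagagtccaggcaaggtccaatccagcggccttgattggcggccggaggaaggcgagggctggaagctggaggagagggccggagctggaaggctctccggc

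The 3 ligand promoters differed in base composition. The Tgfb1 window was 75.2% G or C and held 21 CpG dinucleotides, against 53.6% and 8 for Tgfb2 and 43.2% and 3 for Inhba, while the median of the 27025 RefSeq promoters of this length was 52.0% and 6. In Tgfb2, TATAAA began at -31 and CAGACA at -204, counted from the start site, and in Inhba TATAAA began at -91. Each motif was searched on both strands, together with the AP-1 motif TGANTCA and the palindromic Smad element GTCTAGAC. CAGACA was found in 17.1% of all promoters, TATAAA in 13.0%, GGCGCC in 9.54%, TGANTCA in 6.87% and GTCTAGAC in 0.174%. The windows of Tgfb1, Tgfbr2 and Bmp6 held none of the 5 motifs, and that of Tgfbr1, at the upstream start site of those RefSeq lists, held GGCGCC at -233. These matches are descriptions of letters and say nothing about binding.

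The first question was how the pathway's transcripts differed between the obstructed and the contralateral kidney. Tested with limma across 13243 genes, with adjustment over all of them, 7 of the 10 members were called in Acot12+/+ (adjusted p under 0.05): Tgfb1, Tgfb2, Tgfb3, Inhba, Bmp6 and Tgfbr2 were higher in UUO and Bmp7 was lower. In Acot12-/- mice 8 of 10 were called, the same 7 genes in the same directions and Ltbp1. Of all genes tested 47.5% were called in Acot12+/+, 23.6% higher and 23.9% lower, and 53.7% in Acot12-/-, 26.6% higher and 27.2% lower. When libraries were scaled to the same FPKM total, calls over all genes went from 49.7% to 87.6% higher in Acot12+/+ and from 49.5% to 79.7% in Acot12-/-, and the member calls from 6 higher and 1 lower to 9 and 0, and from 7 and 1 to 9 and 1. The filter on low values asked for 1 FPKM in 3 libraries, which Inhba, Tgfb2 and Tgfb3 met only with the help of the UUO libraries (0, 0 and 2 of the 6 CL libraries reached it), so their calls are not independent of the filter. Of the other 7 members 3 were called higher and 1 lower in Acot12+/+, and 4 higher and 1 lower in Acot12-/-. UUO and CL libraries were free of overlap for 71.3% of all genes tested in Acot12+/+ and for 55.4% in Acot12-/-.

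**Figure D1:**
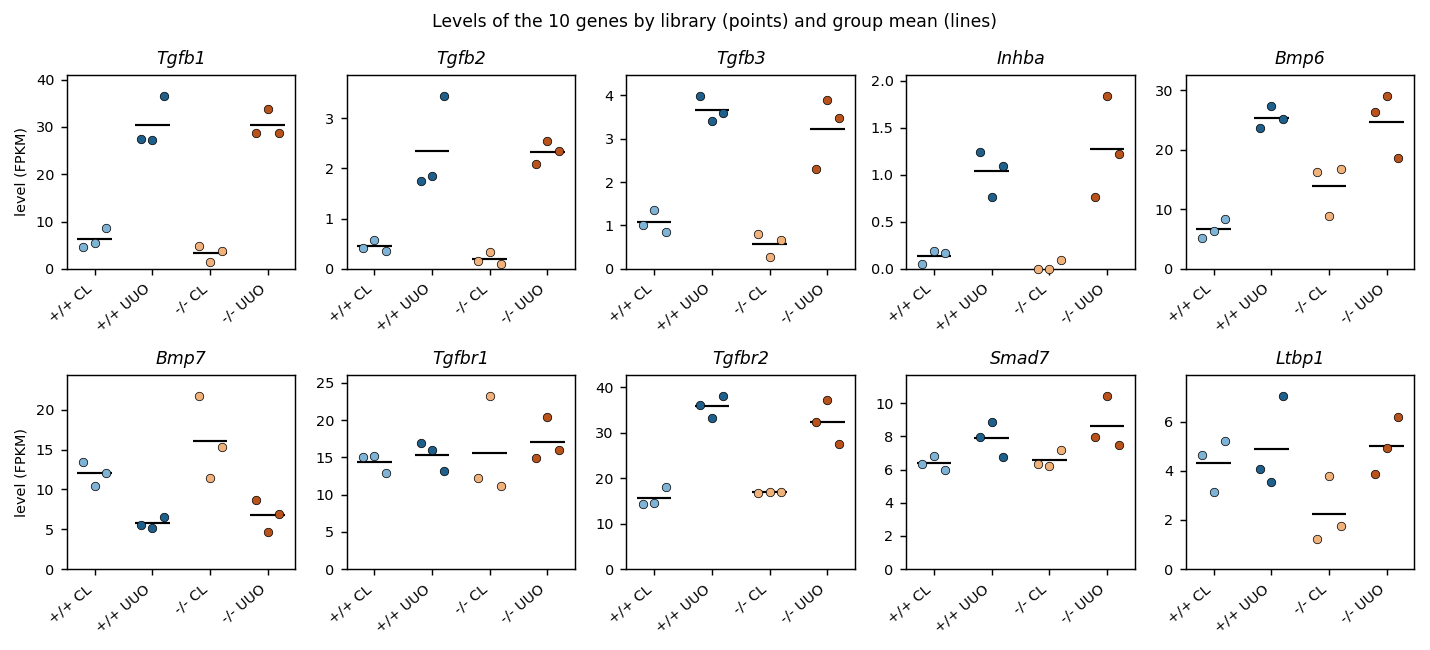
Level in FPKM (vertical axes, linear from 0, each gene on its own scale) of the 10 genes in the 4 groups; points are the 3 libraries of a group and lines are group means, left out for Inhba in Acot12-/- CL, where 2 libraries are listed at 0. Tgfb1 lay between 1.48 and 8.58 FPKM in CL and between 27.2 and 36.5 FPKM in UUO, over 6 libraries each, while Tgfbr1 overlapped between all groups.

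Tgfb1 (chr7:25687002-25705077, GRCm38), the TGFβ isoform most studied in fibrosis, was the most abundant of the 3 isoforms. In Acot12+/+ CL it stood at 4.65, 5.56 and 8.58 FPKM and in Acot12+/+ UUO at 27.4, 27.2 and 36.5 FPKM. The Acot12-/- CL libraries held 4.87, 1.48 and 3.73 FPKM and the Acot12-/- UUO libraries 28.8, 33.8 and 28.8 FPKM. Every UUO library was above every CL library, and the lowest value was that of Acot12-/- CL replicate 2. The mean rose from 6.26 ± 2.06 to 30.4 ± 5.32 FPKM in Acot12+/+, 4.85-fold, and on the log2(FPKM + 1) scale by 2.13 (SE 0.29, adjusted p = 0.000118). In Acot12-/- it rose from 3.36 ± 1.73 to 30.4 ± 2.88 FPKM, 9.06-fold, with a log2 difference of 2.94 (SE 0.29, adjusted p = 8.79e-06) that was 2.57 without Acot12-/- CL replicate 2.

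Tgfb2 (chr1:186622792-186705989), the isoform with the upstream TATAAA, was near the lower limit of these data in CL kidneys, at 0.415, 0.574 and 0.352 FPKM in Acot12+/+ and 0.163, 0.343 and 0.0960 FPKM in Acot12-/-. After UUO it reached 1.75, 1.84 and 3.44 FPKM in Acot12+/+ and 2.10, 2.53 and 2.34 FPKM in Acot12-/-. No UUO library overlapped a CL library. The rise was 1.18 on the log2(FPKM + 1) scale (SE 0.18, adjusted p = 0.000231) in Acot12+/+ and 1.47 (SE 0.18, adjusted p = 3.14e-05) in Acot12-/-, which understates the change of a gene under 1 FPKM. The ratio of the group means was 5.24 and 11.6, and the latter was 17.9 without Acot12-/- CL replicate 2. The Acot12-/- CL values rest on 7.61 to 23.8 fragments a library, so that ratio is loosely set.

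Tgfb3 (chr12:86056745-86079041), the third isoform, stood at 1.02, 1.36 and 0.842 FPKM in Acot12+/+ CL and at 3.98, 3.40 and 3.58 FPKM in Acot12+/+ UUO. In Acot12-/- CL it stood at 0.804, 0.265 and 0.662 FPKM and in Acot12-/- UUO at 2.30, 3.89 and 3.47 FPKM. The groups did not overlap in either genotype. The mean rose 3.41-fold in Acot12+/+ (log2 difference 1.17, SE 0.18, adjusted p = 0.000262) and 5.58-fold in Acot12-/- (1.42, SE 0.18, adjusted p = 4.58e-05).

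The 3 isoforms were also set against their sum. Their summed level was 6.08 to 9.78 FPKM in Acot12+/+ CL and 2.09 to 5.84 FPKM in Acot12-/- CL, against 32.4 to 43.5 and 33.2 to 40.2 FPKM after UUO. Tgfb1 made up 70.9 to 87.8% of the sum in CL and 82.7 to 86.7% in UUO, over 6 libraries each. Tgfb3 held 8.61 to 18.1% in CL and 8.23 to 12.0% in UUO in Acot12+/+, with overlap, and 12.7 to 14.7% against 6.94 to 10.02% in Acot12-/-, without overlap. Tgfb2 held 3.60 to 7.67% against 5.30 to 7.90% and 2.14 to 16.4% against 6.30 to 6.76%. These shares are descriptions and were not tested.

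Inhba (chr13:16011851-16031621) encodes the βA subunit of activin A, a ligand that signals through SMAD2 and SMAD3 as TGFβ does. It was the least abundant member in CL kidneys, at 0.0570, 0.187 and 0.164 FPKM in Acot12+/+ and listed at 0, 0 and 0.0950 FPKM in Acot12-/-. In UUO kidneys it stood at 1.25, 0.766 and 1.10 FPKM in Acot12+/+ and at 0.762, 1.84 and 1.22 FPKM in Acot12-/-. All 6 UUO libraries were above all 6 CL libraries. The difference on the log2(FPKM + 1) scale was 0.84 (SE 0.17, adjusted p = 0.00149) in Acot12+/+ and 1.11 (SE 0.17, adjusted p = 0.000149) in Acot12-/-, and no fold is given against the group with libraries at 0.

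Bmp6 (chr13:38345107-38500302), a BMP known for the control of iron through hepcidin and also made in the kidney, rose in both genotypes. It stood at 5.21, 6.38 and 8.37 FPKM in Acot12+/+ CL and at 23.7, 27.4 and 25.1 FPKM in Acot12+/+ UUO. The Acot12-/- CL libraries were higher, at 16.3, 8.95 and 16.7 FPKM, and the Acot12-/- UUO libraries stood at 26.3, 29.0 and 18.6 FPKM. In Acot12+/+ the mean rose 3.82-fold (log2 difference 1.80, SE 0.24, adjusted p = 0.000114). In Acot12-/- it rose 1.76-fold (0.80, SE 0.24, adjusted p = 0.0148), and the lowest UUO library (18.6 FPKM) stood above the highest CL library (16.7 FPKM). That call was lost when only the 2 groups compared were fitted (adjusted p = 0.0554) and when Acot12-/- UUO replicate 2 was left out (adjusted p = 0.0638).

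Bmp7 (chr2:172868012-172940321), the tubular BMP, went the other way. It stood at 13.4, 10.5 and 12.1 FPKM in Acot12+/+ CL and at 5.49, 5.17 and 6.54 FPKM in Acot12+/+ UUO. Acot12-/- libraries held 21.7, 11.4 and 15.4 FPKM in CL and 8.73, 4.69 and 6.92 FPKM in UUO. Every UUO library was below every CL library. The log2 difference was -0.95 (SE 0.23, adjusted p = 0.00561) in Acot12+/+ and -1.13 (SE 0.23, adjusted p = 0.00149) in Acot12-/-, a fall to 0.477 and 0.420 of the CL mean. When libraries were instead scaled to the same FPKM total, the median of all genes moved by 0.62 in Acot12+/+ and by 0.45 in Acot12-/-, and the difference of Bmp7 became -0.30 (adjusted p = 0.291), no longer called, and -0.63 (adjusted p = 0.0367). Relative to the median gene under that scaling Bmp7 stood at -0.92 and -1.08.

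The ratio of Bmp7 to Tgfb1 lay above 1 in every CL library and below 1 in every UUO library. The level of Bmp7 was 1.41 to 2.89 times that of Tgfb1 in Acot12+/+ CL and 4.11 to 7.71 times in Acot12-/- CL, but 0.179 to 0.200 and 0.139 to 0.304 of it after UUO. Bmp7 was 1.45 to 2.58 times Bmp6 in Acot12+/+ CL and 0.919 to 1.33 times in Acot12-/- CL, and 0.162 to 0.372 of it across the 6 UUO libraries, so that 1 Acot12-/- CL library already held less Bmp7 than Bmp6. These ratios within a library do not depend on how libraries are scaled, and no test was run on them.

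**Figure D2:**
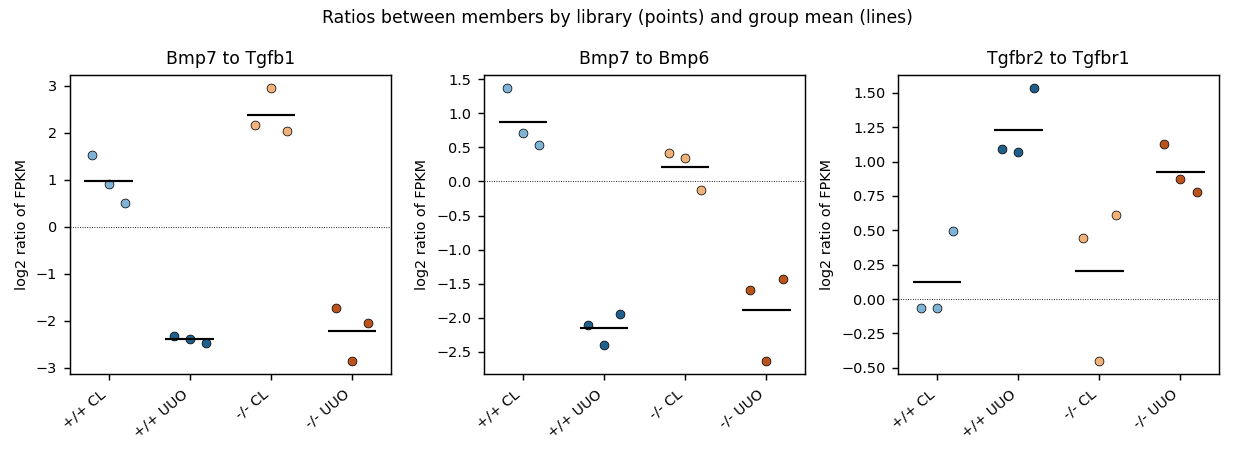
Log2 ratio of the FPKM of Bmp7 to Tgfb1, Bmp7 to Bmp6 and Tgfbr2 to Tgfbr1 (vertical axes) in each library (points) of the 4 groups, with group means (lines); the dotted line at 0 marks equal levels. Bmp7 to Tgfb1 averaged 0.98 in Acot12+/+ CL and 2.38 in Acot12-/- CL, and -2.40 and -2.21 in the UUO groups.

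The receptors differed from each other. Tgfbr2 (chr9:116084293-116175360), the type II receptor that binds the ligand, stood at 14.3, 14.5 and 18.2 FPKM in Acot12+/+ CL and at 36.1, 33.4 and 38.0 FPKM in Acot12+/+ UUO. In Acot12-/- CL it stood at 16.7, 17.0 and 17.0 FPKM and in Acot12-/- UUO at 32.5, 37.3 and 27.6 FPKM. The groups did not overlap. The mean rose 2.28-fold in Acot12+/+ (log2 difference 1.15, SE 0.15, adjusted p = 8.27e-05) and 1.92-fold in Acot12-/- (0.89, SE 0.15, adjusted p = 0.000301).

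Tgfbr1 (chr4:47353222-47414931), the type I receptor that phosphorylates SMAD2 and SMAD3, was not called in either genotype. It stood at 15.0, 15.2 and 12.9 FPKM in Acot12+/+ CL and at 16.9, 15.9 and 13.1 FPKM in Acot12+/+ UUO. In Acot12-/- CL it stood at 12.3, 23.2 and 11.1 FPKM, the high value being that of the library that stood apart, and in Acot12-/- UUO at 14.9, 20.4 and 16.0 FPKM. The log2 difference was 0.09 (95% interval -0.42 to 0.60, adjusted p = 0.779) in Acot12+/+ and 0.19 (-0.32 to 0.70, adjusted p = 0.518) in Acot12-/-. Without Acot12-/- CL replicate 2 the latter was 0.50 and was called (adjusted p = 0.0135), and with libraries scaled to the same total Tgfbr1 was called in both genotypes (0.78 and 0.70). The level of Tgfbr2 was 0.733 to 1.53 times that of Tgfbr1 in CL, and 1.72 to 2.90 times after UUO.

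Smad7, the inhibitor that blocks the activated type I receptor, stood at 6.35, 6.84 and 5.95 FPKM in Acot12+/+ CL and at 7.97, 8.87 and 6.79 FPKM in Acot12+/+ UUO, with overlap. In Acot12-/- CL it stood at 6.33, 6.24 and 7.16 FPKM and in Acot12-/- UUO at 7.98, 10.4 and 7.49 FPKM, without overlap. The log2 difference was 0.26 (95% interval -0.06 to 0.58, adjusted p = 0.161) in Acot12+/+ and 0.34 (0.02 to 0.66, adjusted p = 0.0719) in Acot12-/-, and neither passed the test. With kidneys of the same genotype and replicate number treated as a block the Acot12-/- value passed (adjusted p = 0.0456), and with libraries scaled to the same total both did (0.91 and 0.82).

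Ltbp1 (chr17:75005568-75392512), which holds latent TGFβ in the matrix, stood at 4.62, 3.13 and 5.20 FPKM in Acot12+/+ CL and at 4.08, 3.53 and 7.02 FPKM in Acot12+/+ UUO. In Acot12-/- CL it stood at 1.22, 3.78 and 1.77 FPKM and in Acot12-/- UUO at 3.89, 4.92 and 6.17 FPKM. The groups overlapped in Acot12+/+ (log2 difference 0.12, 95% interval -0.52 to 0.76, adjusted p = 0.758) and did not in Acot12-/- (0.94, 0.30 to 1.58, adjusted p = 0.0173). The Acot12-/- call was lost without Acot12-/- CL replicate 1 (adjusted p = 0.0757) or without Acot12-/- UUO replicate 3 (adjusted p = 0.0679), and scaling to the same total called Acot12+/+ as well (0.72). The ratio of the means in Acot12-/- was 2.21, and 3.34 without Acot12-/- CL replicate 2. The difference between these effects did not pass its own test (interaction 0.82, SE 0.42, adjusted p = 0.546).

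**Figure D3:**
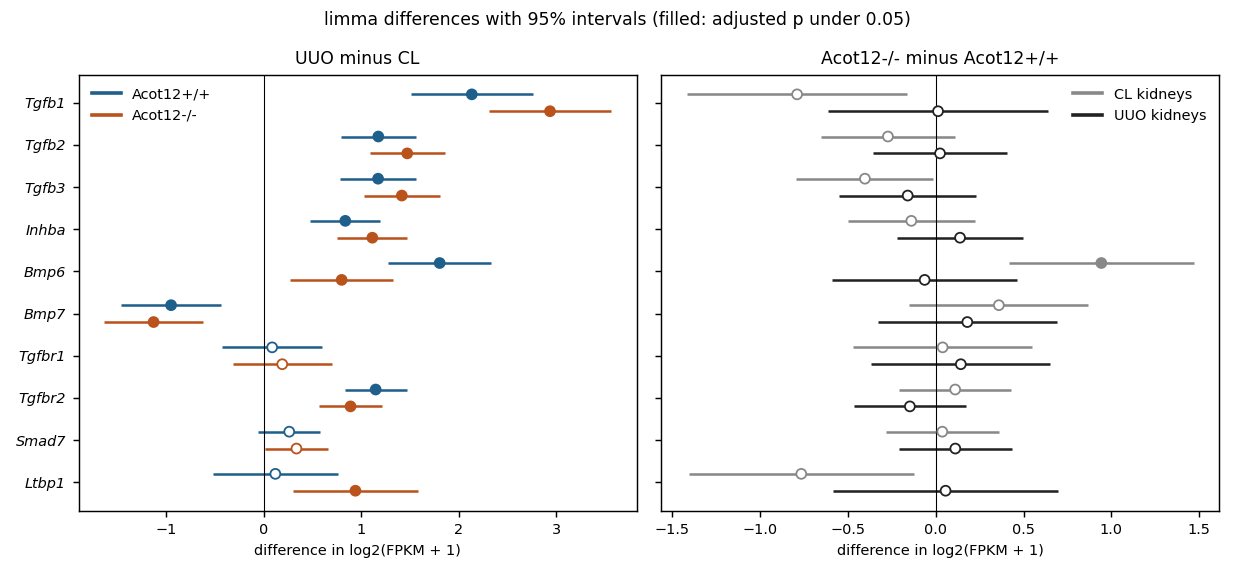
Difference in log2(FPKM + 1) (horizontal axes) with its 95% interval for each of the 10 genes, UUO minus CL in each genotype on the left and Acot12-/- minus Acot12+/+ in each kidney on the right; filled points have an adjusted p under 0.05 and open points do not. On the left 7 and 8 points are filled, with Bmp7 at -0.95 and -1.13 the only called differences below 0, and on the right the filled point is Bmp6 in CL kidneys at 0.94.

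In bulk tissue fewer cells of a type and less RNA per cell cannot be told apart, and markers of several cell types moved with UUO. The summed level of 7 proximal tubule markers was 1306 to 1834 FPKM in Acot12+/+ CL and 313 to 551 FPKM after UUO, and 1665 to 3290 against 198 to 728 FPKM in Acot12-/-. The sum of 9 fibroblast and pericyte markers was 142 to 182 against 348 to 511 FPKM in Acot12+/+ and 48.0 to 113 against 347 to 493 FPKM in Acot12-/-. Over 7 macrophage markers the sum was 113 to 123 against 383 to 434 FPKM and 42.4 to 89.1 against 368 to 592 FPKM. The 5 T cell markers measured summed to 7.23 to 13.2 against 27.3 to 30.4 FPKM and 2.29 to 3.81 against 12.4 to 20.4 FPKM, and the 4 platelet markers to 10.7 to 17.7 against 31.4 to 39.7 FPKM and 3.86 to 6.61 against 27.5 to 54.3 FPKM, with Gp9 under 1 FPKM in every group. Itga2b was also under 1 FPKM in Acot12+/+ UUO. Of the 3 platelet markers tested, 1 was called higher and 1 lower in Acot12+/+, and 2 higher and 0 lower in Acot12-/-. Over all genes 47.5% and 53.7% were called. Distal nephron markers, 6 in all, summed to 1941 to 3216 against 366 to 924 FPKM in Acot12+/+ and 1846 to 2400 against 388 to 739 FPKM in Acot12-/-. The 6 collecting duct markers summed to 297 to 371 against 137 to 219 FPKM in Acot12+/+, and overlapped in Acot12-/- (207 to 407 against 115 to 332 FPKM). The 6 endothelial markers summed to 84.3 to 144 against 67.8 to 83.7 FPKM in Acot12+/+ and 29.2 to 53.4 against 75.9 to 93.5 FPKM in Acot12-/-, sums opposite in direction. In Acot12+/+ 2 of the 6 were higher after UUO and 4 lower, with 1 called higher and 2 called lower. In Acot12-/- 6 were higher and 4 of them were called. The part of these cells in the levels of the ligands and receptors was not tested.

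The second question was whether the genotypes differed. In UUO kidneys 0 of the 10 members were called by limma, 0 had an unadjusted p under 0.05, and no member's groups were free of overlap, beside 12.0% of all genes tested. Over all genes 0.0151% were called, 0% higher and 0.0151% lower in Acot12-/-, and 312 genes (2.36%) had an unadjusted p under 0.05. The Tgfb1 difference (Acot12-/- minus Acot12+/+) was 0.01 on the log2 scale with a 95% interval of -0.61 to 0.64. For Tgfbr2 it was -0.15 (-0.47 to 0.17), for Bmp7 0.18 (-0.33 to 0.69) and for Bmp6 -0.06 (-0.59 to 0.46). These intervals bound the difference and do not show that the groups were alike.

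In CL kidneys 1 of the 10 members was called, against 4.48% of all genes, of which 1.12% were higher and 3.36% lower in Acot12-/-. Bmp6 averaged 14.0 ± 4.37 FPKM in Acot12-/- CL and 6.65 ± 1.60 FPKM in Acot12+/+ CL, 2.10-fold, without overlap, and the log2 difference was 0.94 (SE 0.24, adjusted p = 0.0487). The call rests on a narrow margin, since it was lost in 16 of 20 alternative settings (adjusted p over the 20 from 0.00417 to 0.206), including the replicate block (0.0606). Without Acot12-/- CL replicate 2, the lowest Bmp6 library of its group, the difference was 1.21 (adjusted p = 0.00417).

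Of the other members, Tgfb1, Tgfb3 and Ltbp1 had an unadjusted p under 0.05 in CL kidneys, as did 17.3% of all genes (2289), but did not pass adjustment. Tgfb1 averaged 3.36 FPKM in Acot12-/- and 6.26 FPKM in Acot12+/+ (log2 difference -0.79, 95% interval -1.42 to -0.16, adjusted p = 0.166), and the difference was -0.43 without Acot12-/- CL replicate 2. Tgfb3 stood at 0.577 ± 0.279 against 1.07 ± 0.261 FPKM without overlap (-0.40, -0.79 to -0.01, adjusted p = 0.270). Tgfb2 did not overlap between the genotypes either (-0.27, -0.65 to 0.11, adjusted p = 0.490), and the CL groups were free of overlap for 18.3% of all genes. Ltbp1 stood at 2.26 ± 1.35 against 4.32 ± 1.07 FPKM (-0.76, -1.40 to -0.12, adjusted p = 0.190), and without Acot12-/- CL replicate 2, its highest library, it was called (-1.08, adjusted p = 0.0172). Bmp7 had a log2 difference of 0.36 (-0.15 to 0.87, adjusted p = 0.492).

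Cell type markers also differed between the CL groups. The sum of 6 endothelial markers was 29.2 to 53.4 FPKM in Acot12-/- CL and 84.3 to 144 FPKM in Acot12+/+ CL, and the fibroblast, macrophage, T cell and platelet sums given above were lower in Acot12-/- CL without overlap. Proximal tubule markers overlapped (1665 to 3290 against 1306 to 1834 FPKM). Their part in the member differences was not tested.

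The interaction term, the effect of UUO in Acot12-/- minus that in Acot12+/+, was called by limma for 0 of the 10 members, against 0.106% of all genes, 0.106% higher and 0% lower. Bmp6 alone had an unadjusted p under 0.05, as did 10.5% of all genes (1389) (-1.01, SE 0.34, adjusted p = 0.275), and without Acot12-/- CL replicate 2 its term was -1.28 and was called (adjusted p = 0.0267). The term for Tgfb1 was 0.80 (95% interval -0.09 to 1.69, adjusted p = 0.549). The UUO effect, the CL comparison and this term share the Acot12-/- CL libraries.

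To place the members, 104 other genes of the pathways were followed in lists by role, of which 75 passed the filter, 27 never reached 1 FPKM in any library and 2 of those 27 were listed at 0 throughout. The other 2 genes, Fstl3 and Fbn2, reached 1 FPKM in too few libraries. In Acot12+/+ 43 of the 75 were called after UUO, 38 higher and 5 lower, and in Acot12-/- 51 were called, 44 higher and 7 lower, beside 47.5% and 53.7% of all genes tested. The filter was met only with the help of the UUO libraries by 9 of the 75, among them Inha, Inhbb, Ltbp2, Nrros, Bmp2, Bmp3 and Rgma, and of the other 66 genes 33 were called higher and 5 lower in Acot12+/+ and 36 and 7 in Acot12-/-. With the scaling to the same total the splits were 55 higher and 1 lower, and 55 and 3. The median log2 difference of the 75 was 0.49 and 0.69, beside 0.01 and -0.01 over all genes tested. The lists were made with earlier results known, share some genes, and support no claim about the pathway as a whole.

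Among the other ligands 4 of 8 tested were called in Acot12+/+ and 7 of 8 in Acot12-/-, beside 47.5% and 53.7% of all genes. Inha, Inhbb, Bmp2 and Bmp3 among them passed the filter only with the UUO libraries. Calls of these genes are not independent of the filter. Gdf15, a stress-induced member of the family, rose by 2.12 in each genotype on the log2(FPKM + 1) scale (adjusted p = 0.0107 and 0.00895). In Acot12-/- its CL libraries (0.856 to 15.5 FPKM) and UUO libraries (15.4 to 31.2 FPKM) overlapped, and the difference was 1.32 without Acot12-/- CL replicate 2 and 2.89 without Acot12-/- CL replicate 3. Inhbb, the βB subunit of activin, rose by 1.64 and 2.21, and Inha, the inhibin α subunit that opposes activin, by 1.01 and 1.09, and both passed the filter only with the UUO libraries, their CL libraries reaching at most 0.922 and 0.527 FPKM. Gdf10, a BMP-like ligand, fell by 0.82 in Acot12+/+, a call lost without Acot12+/+ UUO replicate 1 (adjusted p = 0.0531), and had a difference of 0.05 in Acot12-/- (adjusted p = 0.876). Of 16 further ligands that did not pass the filter, Bmp5 reached at most 0.487 FPKM and Bmp10 was listed at 0 in every library.

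Of 12 other receptors tested, 3 were called in Acot12+/+ and 5 in Acot12-/-, all higher, beside 47.5% and 53.7% of all genes called. Acvr1, a type I receptor for BMPs, rose by 0.74 and 0.69 and the coreceptor Rgmb by 0.52 and 0.39. The Acot12-/- call of Rgmb was lost in 13 of 20 alternatives (adjusted p from 0.0524 to 0.206), with a difference of 0.28 without Acot12-/- CL replicate 2, and the Acot12+/+ call in 2, without Acot12+/+ CL replicate 1 (0.0539) and without Acot12+/+ UUO replicate 2 (0.0654). Acvr1b, the activin type I receptor, rose by 0.45 in Acot12+/+, a call lost without Acot12+/+ UUO replicate 2 (adjusted p = 0.0504), and had a difference of -0.03 in Acot12-/-. The BMP receptors Bmpr1a (0.04 and -0.09) and Bmpr2 (-0.30 and -0.02) were called in neither genotype, though without Acot12-/- CL replicate 2 Bmpr2 was called in both, at -0.30 and 0.38 (adjusted p = 0.0427 and 0.0244). Eng and Acvrl1, receptors of endothelial cells, rose by 1.26 and 0.97 in Acot12-/- and had differences of -0.18 and 0.20 in Acot12+/+. The endothelial marker sum given above was higher after UUO in Acot12-/- and lower in Acot12+/+, where single markers went both ways. The part of endothelial cells in these differences was not tested.

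The Smad transducers, the nuclear messengers, gave 3 calls of 5 in Acot12+/+ and 2 in Acot12-/-, beside 47.5% and 53.7% of all genes. Smad3, of the TGFβ and activin branch, rose by 1.17 and 0.75, and Smad1, of the BMP branch, by 0.81 and 1.10. Smad5 rose by 0.34 in Acot12+/+, a call lost in 9 of 20 alternatives (adjusted p from 0.0543 to 0.155), among them each that left out an Acot12+/+ library, and had a difference of 0.10 in Acot12-/-. Smad2 (0.38 and 0.30) and the shared partner Smad4 (0.11 and -0.20) were not called, though Smad2 in Acot12+/+ passed with the replicate block (adjusted p = 0.0365). Without Acot12-/- CL replicate 2 Smad2 was called in both genotypes, at 0.38 and 0.44 (adjusted p = 0.0259 and 0.0227).

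Of 11 intracellular inhibitors 8 were called in each genotype, 6 higher and 2 lower, beside 47.5% and 53.7% of all genes called. Tgif1, a corepressor of Smads, rose by 2.28 and 1.80, Pmepa1, which sequesters receptor Smads, by 1.12 and 1.36, and Smurf1, a ubiquitin ligase for receptors and Smads, by 1.00 and 1.16. Its relative Smurf2 fell by 0.93 and 1.17. Nedd4l, another ubiquitin ligase, was not called (0.28 and -0.06). The decoy receptor Bambi was not called (-0.16 and 0.45), and passed in Acot12-/- with the replicate block (adjusted p = 0.0396). Without Acot12-/- CL replicate 2 the latter was 0.60 (adjusted p = 0.0206), and it was also called without Acot12+/+ CL replicate 2 (adjusted p = 0.0378).

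Secreted antagonists of BMPs and of other ligands of the family gave 4 calls of 11 in each genotype, 2 in each direction. Of all genes 47.5% and 53.7% were called. In Acot12-/- the higher calls were Nbl1 and Dcn. Dcn, also a fibroblast and pericyte marker, averaged 20.2 FPKM in Acot12-/- CL and 71.7 FPKM in Acot12-/- UUO. Nbl1 rose by 2.46 and 2.76. Chrdl1 fell by 1.53 and 1.37, and Sostdc1, an antagonist of BMP7 in the kidney tubule, fell by 1.33 and 1.47. Chrd rose by 0.56 in Acot12+/+ and had a difference of 0.43 in Acot12-/- (adjusted p = 0.0779). The former call was lost without Acot12+/+ CL replicate 1 or 3 or UUO replicate 2 (adjusted p from 0.0806 to 0.114), and the latter was made without Acot12-/- CL replicate 3 (0.58, adjusted p = 0.0274). Crim1 (0.24 and 0.27) and Twsg1 (-0.13 and -0.02) were not called, and without Acot12-/- CL replicate 2 Crim1 was called in Acot12-/- (0.62, adjusted p = 0.0034).

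Genes of latency and activation gave 10 calls of 13 in Acot12+/+, all higher, and 11 in Acot12-/-, 10 higher and 1 lower. Of all genes 47.5% and 53.7% were called. Ltbp2, a matrix relative of Ltbp1, rose by 2.01 and 1.79. Bmp1, a protease that releases latent complexes, rose by 1.65 and 2.50, Thbs1, an activator of latent TGFβ1, by 1.42 and 1.74, and Nrros, which holds latent TGFβ1 on macrophages, by 1.39 and 1.75, of which Ltbp2 and Nrros passed the filter only with the UUO libraries, with at most 0.110 and 1.31 FPKM in CL. Furin, the protease that cuts the TGFβ precursor, was not called (-0.29 and -0.59), but without Acot12-/- CL replicate 2 the Acot12-/- difference was -1.13 and was called (adjusted p = 9.04e-05).

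TGFβ target genes were called in 12 of 13 in Acot12+/+ and in 13 of 13 in Acot12-/-, all higher, with median differences of 1.44 and 2.68. Of all genes 23.6% and 26.6% were called higher. Timp1, an inhibitor of matrix proteases, rose by 3.90 and 5.09, and the matrix genes Col1a1 by 2.12 and 2.78 and Fn1 by 2.07 and 2.98. Acta2, Col1a1, Col1a2 and Col3a1 are also fibroblast and pericyte markers. BMP target genes gave 2 calls of 6 in Acot12+/+ and 5 in Acot12-/-, 4 of them higher, beside 47.5% and 53.7% of all genes called. Id3 rose by 1.32 and 1.81 and Atoh8 by 0.50 and 1.55, the former call of Atoh8 being lost without Acot12+/+ CL replicate 2 or 3 or UUO replicate 1 or 3 (adjusted p from 0.0518 to 0.111). Id4 was not called (0.05 and -0.38), and was called in Acot12-/- without Acot12-/- CL replicate 3 (-0.74, adjusted p = 0.0200).

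**Figure D4:**
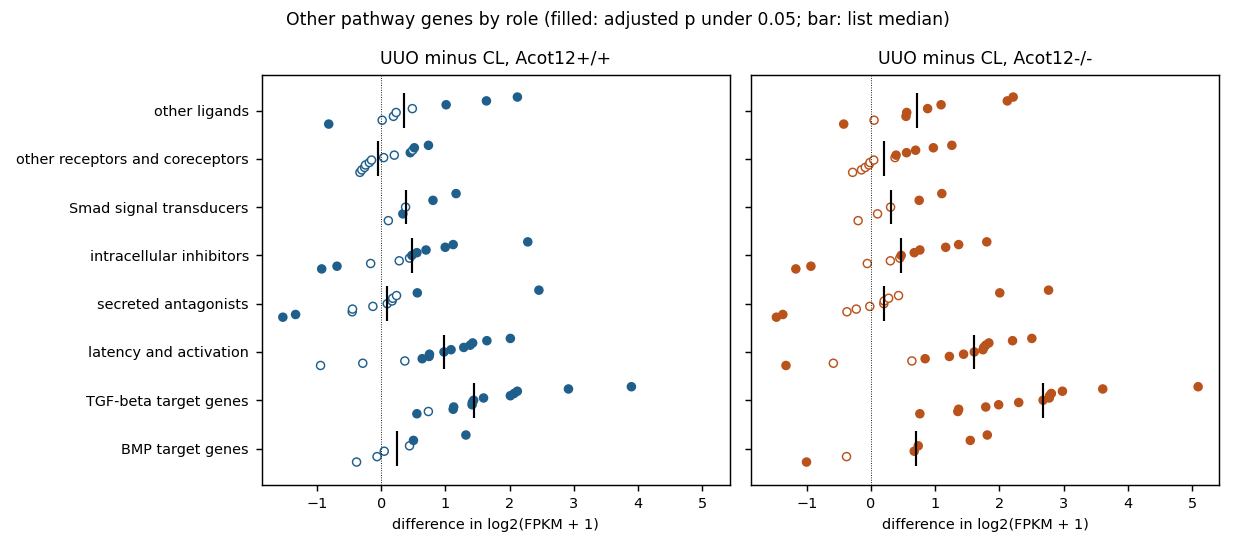
Difference in log2(FPKM + 1) between UUO and CL (horizontal axes) of the other pathway genes tested, grouped by role, in Acot12+/+ (left) and Acot12-/- (right); filled points have an adjusted p under 0.05 and bars are list medians. TGFβ target genes had medians of 1.44 and 2.68 and receptors of -0.06 and 0.21.

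Between genotypes, limma called 0 of the 75 genes in UUO kidneys, where 1 had an unadjusted p under 0.05, beside 0.0151% and 2.36% of all genes. In CL kidneys it called 11, all lower in Acot12-/-, beside 4.48% of all genes. They were the ligand Gdf10 (-0.96), the endothelial receptors Eng (-1.30) and Acvrl1 (-0.70), the latency genes Ltbp4 (-0.99), Fbn1 (-0.76), Nrros (-0.52) and Emilin1 (-1.10), and the target genes Ctgf (-1.56), Tagln (-1.53), Fn1 (-0.94) and Col3a1 (-1.35). With the replicate block Nrros, Emilin1 and Col3a1 lost the call (adjusted p = 0.0599, 0.0520 and 0.0507). Without Acot12-/- CL replicate 2 the count was 28, of which 5 were higher and 23 lower in Acot12-/-. Calls over all genes then went from 593 of 13243 to 2918 of 13214. Over all alternatives the call was lost in 16 for Nrros, 14 each for Fbn1 and Col3a1, and 13 for Emilin1. It was lost in 9 for Acvrl1, 8 for Gdf10, 5 for Eng, 4 for Fn1, 3 for Ctgf and 1 each for Ltbp4 and Tagln. The interaction was called by limma for 0 of the 75, of which 20 had an unadjusted p under 0.05, beside 0.106% and 10.5% of all genes. With the replicate block it was called for Tagln and Atoh8, beside 203 of 13243 genes. Without Acot12-/- CL replicate 2 the interaction was called for 11 pathway genes, 10 higher and 1 lower, beside 899 of 13214 genes.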

How the data were processed

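Gene levels in kidney cortex were read from 12 deposited tables, 1 a library. The authors used a directional RNA-seq kit and had the reads trimmed, mapped and normalized by a service provider; the submitters' processing notes name mm10 and edgeR, and the aligner is not given in the sources used here. The deposited values are FPKM; the unit is not named and was derived from low values, which are whole multiples of a step that falls with transcript length and which gave the depth in fragments. Counts were not used here and no count model was run.

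Genes with at least 1 FPKM in at least 3 libraries were kept, less genes listed at 0 beside at least 10 FPKM in another library of the group (58 genes, 28 of which would have passed), which left 13243. limma 3.58.1 (R 4.3.3) was fitted to log2(FPKM + 1) with 4 group means and a variance trend, with Benjamini-Hochberg adjustment over all genes tested. Differences in log2(FPKM + 1) understate the change of low genes. The labels do not say whether kidneys of different replicates came from different mice, so p-values measure the spread between these libraries. Gene positions are from GENCODE vM21 (GRCm38) and promoters from RefSeq (GRCm38.p6).

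After centring within groups, same-numbered UUO and CL kidneys of a genotype had positive correlations (r from 0.134 to 0.364 in Acot12+/+ and 0.186 to 0.322 in Acot12-/-). Between different numbers r was at most 0.139 and -0.0748, so the ranges overlapped in Acot12+/+. The centring ties the values of same and different numbers to each other. Replicate numbers were used as a block in an alternative fit (consensus correlation 0.208). The labels give the numbers and do not say that they mark a mouse.

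The members and the lists of other genes were chosen with earlier results of these data known. Named besides the members were, per list, up to 4 genes with the largest called change after UUO in Acot12+/+, and genes called between genotypes. Up to 2 genes per list called in neither genotype, with the highest level, were named too. Bmp2, Bmp3, Bmp5, Bmp10, Rgma, Fstl3, Fbn2, Acta2, Col1a2 and Dcn were named after their values were seen. A gene that this rule names among the TGFβ target genes is not reported here. Alternatives were a pseudocount of 0.1, no filter, other scalings, zeros kept, no trend, the block, only the groups compared, and each library left out. UUO against CL in Acot12+/+ was simulated on log2 values of 13241 genes. The test recovered 56% of genes changed by 1 on the log2 scale and 95% of those changed by 2. The changes were planted in a small part of the genes, all at a higher level in Acot12+/+ CL than Inhba, Tgfb2 and Tgfb3. These rates therefore do not describe the test on those members, or on data in which 47.5% of all genes were called.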

Additional observations from a re-analysis of the deposited data

How the results depend on the processing

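Over the members and the named pathway genes 5533 values were recomputed under the alternatives; 5315 kept their direction and their side of the threshold, counting as kept 171 that were uncalled in both and had the other sign, 145 lost the call and 69 gained it. In 4 the sign of a small uncalled difference turned and passed the threshold, namely, with libraries scaled to the same total, Twsg1 in Acot12+/+ (0.58) and Acvr1b (0.46) and Nedd4l (0.45) in Acot12-/-, and, without Acot12-/- CL replicate 2, Bmpr2 in Acot12-/- (0.38; from -0.33 to 0.38 over the libraries left out), all UUO against CL. That scaling moves the median of all genes upwards, as given above. The counts of members called after UUO ranged from 7 to 7 in Acot12+/+ and from 7 to 9 in Acot12-/- when libraries were left out in turn, and those of the 75 pathway genes from 36 to 50 and from 45 to 54.

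Counts between genotypes were less steady. In CL kidneys the 1 member called became 0 with no filter, with the scaling to the same total, with zeros kept, with the replicate block and with only the groups compared (7 members tested), and ranged from 0 to 2 when libraries were left out. The 11 pathway genes became 5 with no filter, 6 with the scaling and 0 with only the groups compared, and ranged from 2 to 28. Over all genes the 593 calls became 530, 333 and 5 in the same order, and ranged from 187 to 2918. In the interaction the members called ranged from 0 to 1 and the pathway genes from 0 to 11, with 2 under the replicate block. The high ends, 28, 1 and 11, were those without Acot12-/- CL replicate 2, and the causes were not tested. Over all genes the interaction calls were 14 in the main fit, 203 under the replicate block and 899 without that library. The replicate block changed no call of a member other than Smad7 and Bmp6. Inhba, Tgfb2 and Tgfb3 in CL kidneys rest on few fragments, which limits their ratios.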

Other observations

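For each member the genes with the most similar pattern were found by Pearson's r of log2(FPKM + 1) over the 12 libraries, against 13242 other genes. The libraries fall into a UUO and a CL set, which most genes follow, so a high r is common, and no test was run. Tgfb1 was most like Vasp (0.990) and Impdh1 (0.990), with 1333 genes above 0.9. Tgfb2 was most like Dock2 and Gm1966, Tgfb3 like Grk5 and Pdlim7, Inhba like Prss22 and Fam26f, and Tgfbr2 like Fut4 and Ephb6. Bmp7 was most like Acp6 (0.992), an acid phosphatase, and Dgat2 (0.980), an enzyme of triglyceride synthesis, with 950 genes above 0.9. Bmp6 was most like Add1 (0.983) and Ncstn (0.978), with 181 genes above 0.9. Tgfbr1, Smad7 and Ltbp1 had few close companions, with 12, 12 and 28 genes above 0.9. Their nearest were Rsbn1l (0.946) and Crim1 (0.944) for Tgfbr1, Serpinb5 (0.945) and S100a14 for Smad7, and Lepr (0.966) and Lmo2 for Ltbp1.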
